A study of Mus musculus with 12 samples.

Results

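The genes described here are 9 members of the retinoid pathway, the retinaldehyde dehydrogenases Aldh1a1, Aldh1a2 and Aldh1a3 with Rbp4, Crabp1, Crabp2, Rarb, Cyp26b1 and Dhrs3, found by symbol in each of 3 tables that held 27319, 27631 and 27598 genes. They were picked because of how they moved with treatment in these libraries, so their treatment differences are given below as a description without p-values. The libraries were made from poly(A) RNA of fibroblasts of hindlimb muscle from C57BL/10 wild-type mice of postnatal day 3, which had been purified by adherence and were treated at passage 2. All cells were kept in medium with charcoal-stripped serum, and for 48 hours they received 1 µM aldosterone, an agonist of the mineralocorticoid receptor, 1 µM spironolactone, an antagonist of this receptor, or vehicle alone, with 0.01% DMSO in every group. Each group had 4 libraries from 2 mice, with 2 plates per mouse and treatment, and the cells of a mouse were pooled before they were divided among plates. The labels give each library a sample number and a biological replicate number and do not say which of these is the mouse. Here replicates 1 and 2 of a group are those of sample number 1 and replicates 3 and 4 those of sample number 2, so that n = 4 counts plates and p-values measure the spread between plates of 2 mice. Reads on genes numbered between 19136923 and 30219185 per library.

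Vitamin A reaches cells as retinol bound to Rbp4, its carrier in blood. Retinol dehydrogenases oxidize it to retinaldehyde, Dhrs3 reduces retinaldehyde back to retinol, and the Aldh1a enzymes oxidize retinaldehyde irreversibly to retinoic acid. Crabp1 and Crabp2 bind retinoic acid inside the cell, Cyp26b1 inactivates it by oxidation, and Rarb is a nuclear receptor whose gene is itself a classical target of retinoic acid. The pathway is known for its part in limb patterning and in the differentiation of mesenchymal cells. Only transcripts were measured, and no retinoid or enzyme activity.

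The treated cells carried the marker genes of fibroblasts. The summed level of 6 fibroblast markers (Col1a1, Col1a2, Pdgfra, Dcn, Lum and Thy1) ranged from 30898 to 42759 reads per 1000000 reads on genes (CPM) over the 12 libraries. Nearly all of this sum came from Col1a1 and Col1a2, with means of 24204 and 15840 CPM in vehicle. Pdgfra, Dcn, Lum and Thy1 had means of 134, 214, 46.3 and 104 CPM there. Markers of leukocytes summed to between 8.01 and 12.2 CPM, with Ptprc and Adgre1 at 3 reads or fewer in every library. The sum came from Lyz2, Csf1r and Cd68, which were detected, with means of 6.99, 2.29 and 1.01 CPM in vehicle. Myogenic markers summed to between 2.57 and 5.78 CPM, with Pax7, Myf5 and Myog at 3 reads or fewer. Most of this sum was Des, with a mean of 4.17 CPM in vehicle, and Myod1 had up to 7 reads. The 4 markers of pericytes and smooth muscle (Rgs5, Myh11, Cspg4 and Kcnj8) were higher, between 289 and 523 CPM in sum. In bulk RNA, a change in the number of cells of a type and a change of RNA per cell cannot be told apart.

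Aldh1a1 transcripts rose about 8-fold with aldosterone, whereas neither Aldh1a2 nor Aldh1a3 was higher. Aldh1a1 (ENSMUSG00000053279, chr19:20470079-20620829, plus strand, mm39) was at 28.2, 30.1, 34.5 and 30.9 CPM in the vehicle libraries. In the aldosterone libraries it was at 217, 233, 273 and 302 CPM. The spironolactone libraries had 29.7, 31.0, 35.5 and 39.02 CPM, which overlapped with vehicle, while every aldosterone library lay far above all 8 others. The fitted difference between aldosterone and vehicle was 3.08 ± 0.082 (log2 scale, SE, n = 4 per group), an 8.47-fold rise with a 95% interval of 7.50 to 9.56. Between aldosterone and spironolactone it was 2.96 ± 0.0898, or 7.79-fold. These comparisons share the aldosterone libraries. Among 15245 genes whose mean normalized count reached 10, its increase over vehicle ranked 35th.

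**Figure D1:**
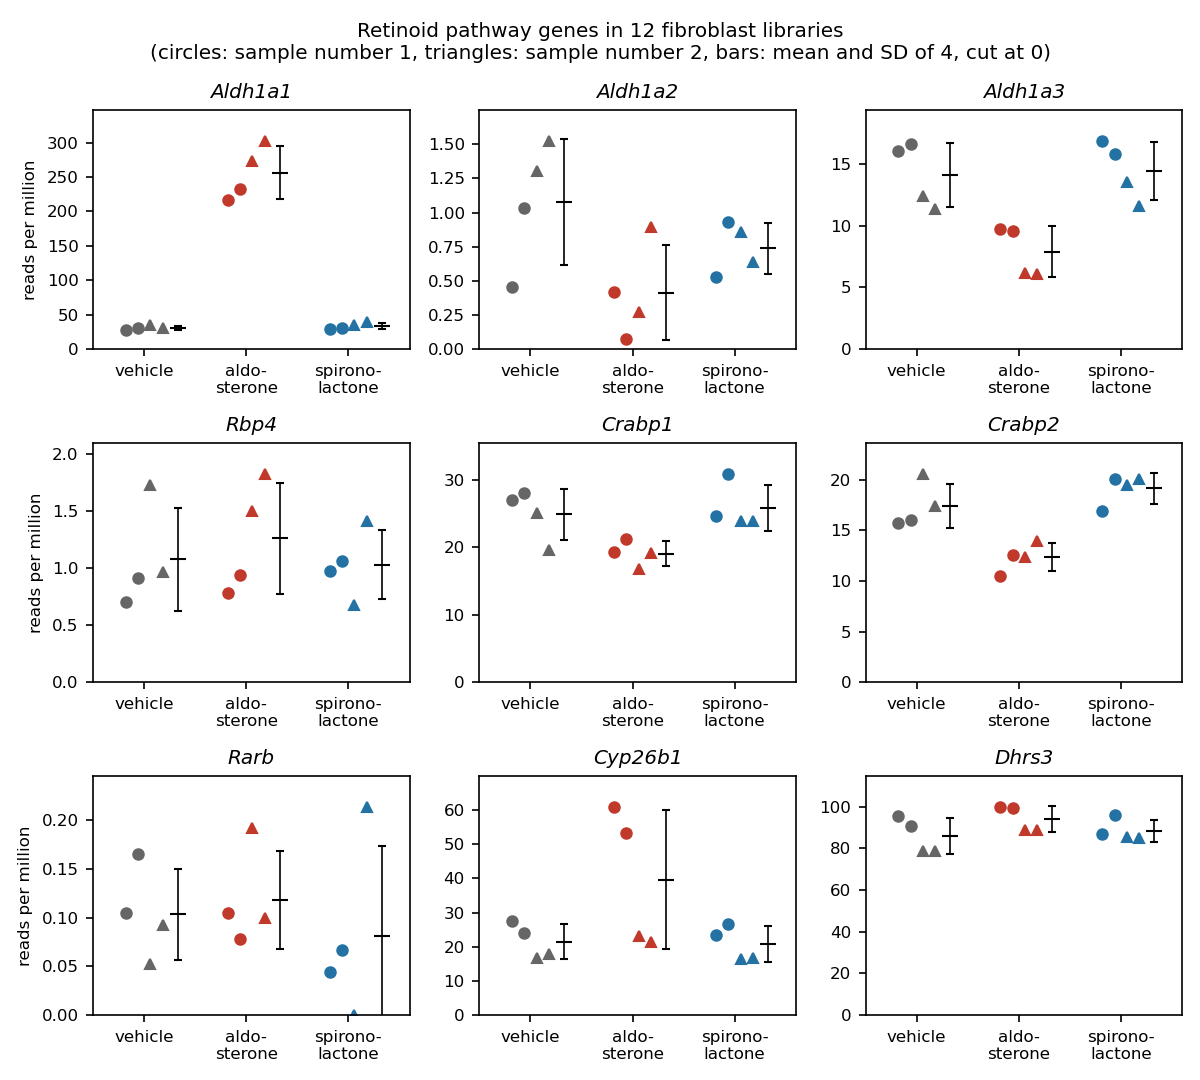
Level of each gene (CPM, linear axis from 0) in the 12 libraries by treatment. Circles are libraries of sample number 1, triangles those of sample number 2, and the bars beside them show the mean and SD of 4 libraries, cut at 0. Aldh1a1 was between 217 and 302 CPM in the aldosterone libraries and between 28.2 and 39.02 CPM in the others, and Cyp26b1 was at 60.9 and 53.2 CPM in the aldosterone libraries of sample number 1, above all others.

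Aldh1a3, an enzyme that makes retinoic acid with high efficiency, was lower with aldosterone. Aldh1a3 (ENSMUSG00000015134, chr7:66040638-66077265, minus strand) was at 16.1, 16.6, 12.4 and 11.4 CPM in the vehicle libraries and at 9.72, 9.61, 6.14 and 6.12 CPM in the aldosterone libraries. With spironolactone it was at 16.8, 15.8, 13.5 and 11.6 CPM. All aldosterone libraries were below all libraries of the other groups. The difference was -0.81 ± 0.175 from vehicle and -0.84 ± 0.167 from spironolactone on the log2 scale. Aldh1a2, the enzyme of early embryonic retinoic acid synthesis, was barely detected, with 2 to 33 reads per library. Its level was 0.454, 1.03, 1.31 and 1.52 CPM with vehicle, 0.418, 0.0781, 0.269 and 0.893 CPM with aldosterone, and 0.531, 0.928, 0.855 and 0.640 CPM with spironolactone, so the groups overlapped. Its difference from vehicle was -1.496 with a 95% interval of -2.65 to -0.34. Fitted with a replicate block, its estimate was the same -1.496 and the gene passed both thresholds, as 0.955% of all genes did in that direction.

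Levels of different genes were set side by side per kilobase of gene length as given in the tables. In the vehicle libraries Aldh1a1 gave 6.26 ± 0.534 CPM per kb (SD, n = 4), Aldh1a3 3.06 ± 0.566 and Aldh1a2 0.476 ± 0.204. The sum of the 3 genes was between 9.39 and 10.2 CPM per kb with vehicle, between 9.90 and 10.7 with spironolactone and between 46.2 and 62.8 with aldosterone. Aldh1a1 made up 63.9% ± 4.08 of this sum with vehicle and 96.4% ± 1.18 with aldosterone, and the share of Aldh1a3 was 31.2% ± 5.83 and 3.31% ± 1.26. With spironolactone the share of Aldh1a1 was 66.3% ± 6.07. The family total thus followed Aldh1a1, since the lower level of Aldh1a3 was small beside the increase of Aldh1a1.

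**Figure D2:**
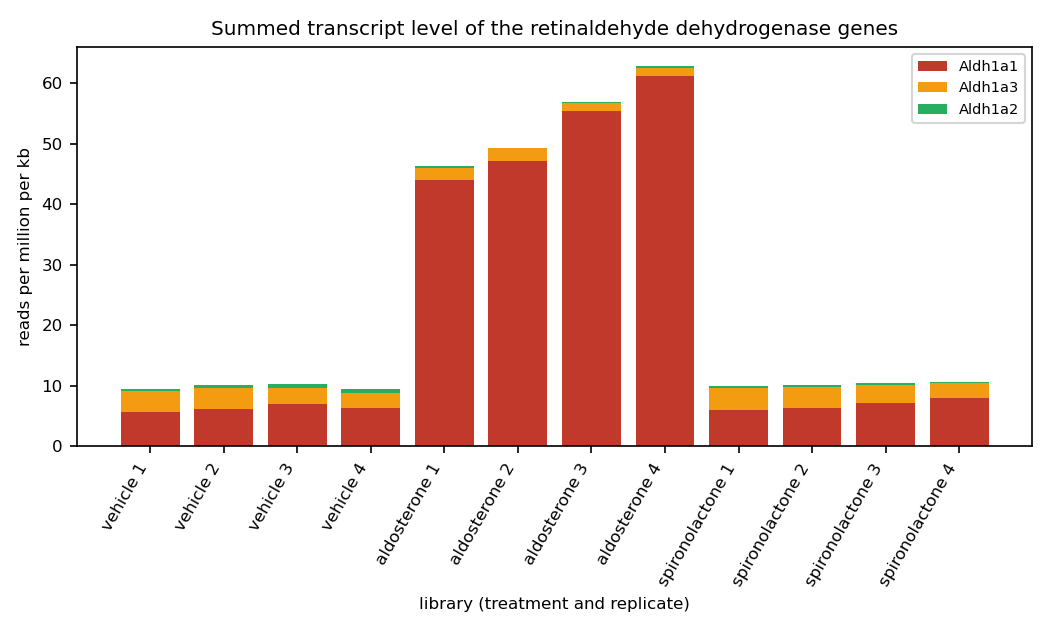
Summed transcript level of the retinaldehyde dehydrogenase genes (CPM per kb, stacked by gene) in each library. Every aldosterone library had a sum of at least 46.2, almost all of it from Aldh1a1, against 9.39 to 10.7 in the other 8 libraries.

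A neighbouring gene moved with Aldh1a1. Aldh1a7 encodes a rodent enzyme closely related to Aldh1a1 and lies next to it (ENSMUSG00000024747, chr19:20670317-20704926, minus strand). Its level was 2.48, 2.56, 3.19 and 3.18 CPM with vehicle, 5.22, 7.22, 10.2 and 10.6 CPM with aldosterone, and 2.48, 1.33, 3.60 and 3.46 CPM with spironolactone. All aldosterone libraries were above all others, while vehicle and spironolactone overlapped, and the difference from vehicle was 1.52 ± 0.191 on the log2 scale (limma, adjusted p = 3.91e-05). The coding sequences of the pair are 91.63% identical over 1506 aligned bases, and 10.4% of 50-base windows of the Aldh1a1 coding sequence occur unchanged in Aldh1a7, so that reads of one gene may have been counted for the other. For each 100 Aldh1a1 reads there were 8.50 to 10.3 Aldh1a7 reads with vehicle and 2.41 to 3.72 with aldosterone. How far shared sequence entered these counts was not tested. By contrast, the coding sequence of Aldh1a1 is 69.87% identical to that of Aldh1a2 and 69.09% to that of Aldh1a3.

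The 100 bases before the start of these neighbours are shown because the genes rose together, and that of Rarb because it holds a classical element for retinoic acid receptors. The sequences are from RefSeq on GRCm38.p6, a build other than that of the positions above, and capitals mark the octamer ATGCAAAT in the first pair and a DR5 element, 2 receptor hexamers spaced by 5 bases, in Rarb. The Aldh1a1 start is the downstream of 2 in RefSeq, and Rarb is on the minus strand of that build and on the plus strand in the tables.
Aldh1a1 chr19:20601868-20601967 (plus strand): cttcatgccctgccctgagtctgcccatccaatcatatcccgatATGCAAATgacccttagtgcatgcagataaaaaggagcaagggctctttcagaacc
Aldh1a7 chr19:20727557-20727656 (minus strand): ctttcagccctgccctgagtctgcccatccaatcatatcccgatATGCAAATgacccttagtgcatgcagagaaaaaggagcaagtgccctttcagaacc
Rarb chr14:16575477-16575576 (minus strand): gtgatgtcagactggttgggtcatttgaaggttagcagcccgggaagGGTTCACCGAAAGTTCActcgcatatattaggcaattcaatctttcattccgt

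The stretches of Aldh1a1 and Aldh1a7 were identical at 94 of 100 positions. The octamer lay 56 to 49 bases before both starts and was also found 84 to 77 bases before that of Aldh1a2. It was picked after these sequences were read. On either strand it occurs in 526 of 32851 RefSeq windows, each the 250 bases before a gene start (1.6%). The DR5 element of Rarb lay 53 to 37 bases before its start, and such an element was in 29 windows (0.0883%). A DR2 element, in which 2 bases separate the hexamers, was in none of the 11 windows of the 7 members with an entry, and in 57 of all windows (0.174%). A palindrome bound by receptors of the steroid class, AGAACA and its reverse complement TGTTCT with 3 bases between them, was found in 3 of all windows (0.00913%) and in 0 of those of the members. The hexamer AGAACA, which the palindrome contains, was in 16.1% of all windows and, among the members, in 1 window of Dhrs3. Aldh1a3 and Crabp2 had no entry.

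Cyp26b1, which degrades retinoic acid, was higher with aldosterone in sample number 1 and much less so in sample number 2. Cyp26b1 (ENSMUSG00000063415, chr6:84548396-84570890, minus strand) was at 27.7, 24.0, 16.6 and 17.9 CPM with vehicle and at 60.9, 53.2, 23.3 and 21.2 CPM with aldosterone. With spironolactone its levels were 23.5, 26.7, 16.3 and 16.7 CPM. The aldosterone libraries of sample number 2 lay below both vehicle libraries of sample number 1, so the groups overlapped, although within each sample number both aldosterone libraries exceeded both vehicle libraries. The pooled difference from vehicle was 0.80 ± 0.283. Within sample number 1 the difference was 1.19 (95% interval 0.98 to 1.41), a 2.29-fold rise, and within sample number 2 it was 0.40 (0.18 to 0.61), or 1.32-fold. The test of the difference between them gave -0.79 ± 0.141 (limma with an interaction term, unadjusted p = 7.6e-05, adjusted p = 0.259 over 27319 genes, of which 0.0146% were called and 4.96% had an unadjusted p under 0.05). With a filter on a mean of 10 the adjusted p was 0.0442, with edgeR on the reads recovered from the normalized counts it was 0.0451, and with DESeq2 on them it was 0.00531. Without 1 library at a time, the limma estimate was between -0.91 and -0.68. Such a fit leaves 1 plate in a combination of treatment and sample number, so no p-value is given for it. For the other 8 genes the limma interaction gave adjusted p-values of 0.895 to 0.989. All these p-values rest on 2 plates per treatment and sample number, in libraries that also served to pick the genes. They measure the spread between plates and do not test mice in general.

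Crabp1 and Crabp2, the cytoplasmic carriers of retinoic acid, were lower with aldosterone by a smaller amount. Crabp2 (ENSMUSG00000004885, chr3:87855973-87860683, plus strand), which hands retinoic acid to its receptors, was at 15.7, 16.0, 20.5 and 17.4 CPM with vehicle, 10.5, 12.6, 12.4 and 13.96 CPM with aldosterone, and 16.9, 20.1, 19.5 and 20.05 CPM with spironolactone. No aldosterone library reached the others, and the differences were -0.45 ± 0.0998 from vehicle and -0.59 ± 0.0919 from spironolactone. Crabp1 (ENSMUSG00000032291, chr9:54672032-54680394, plus strand) was at 27.03, 28.1, 25.0 and 19.6 CPM with vehicle, 19.3, 21.2, 16.7 and 19.1 CPM with aldosterone, and 24.7, 30.8, 23.9 and 23.9 CPM with spironolactone. Its aldosterone libraries were all below those of spironolactone and overlapped with vehicle replicate 4. The difference was -0.34 ± 0.111 from vehicle and -0.39 ± 0.0988 from spironolactone. Coding sequences of the 2 carriers are 70.77% identical.

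None of Dhrs3, Rbp4 and Rarb passed the test without a block, and the last 2 had few reads. Dhrs3 (ENSMUSG00000066026, chr4:144619397-144654779, plus strand) was at 95.6, 91.0, 78.6 and 78.9 CPM with vehicle, 99.8, 99.7, 89.0 and 88.7 CPM with aldosterone, and 86.8, 96.2, 85.5 and 85.2 CPM with spironolactone. Its groups overlapped, while within each sample number the aldosterone libraries were above those of vehicle, by 0.15 in sample number 1 and 0.21 in sample number 2 on the log2 scale. Rbp4 (ENSMUSG00000024990, chr19:38105077-38113729, minus strand) had 15 to 55 reads per library and a difference from vehicle of 0.26 (95% interval -0.45 to 0.97). Rarb (ENSMUSG00000017491, chr14:5650540-6038924, plus strand) had 0 to 5 reads per library in all groups, and at this depth a difference could not be detected. A level of 3 reads was taken as the lowest that can be told from 0.

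**Figure D3:**
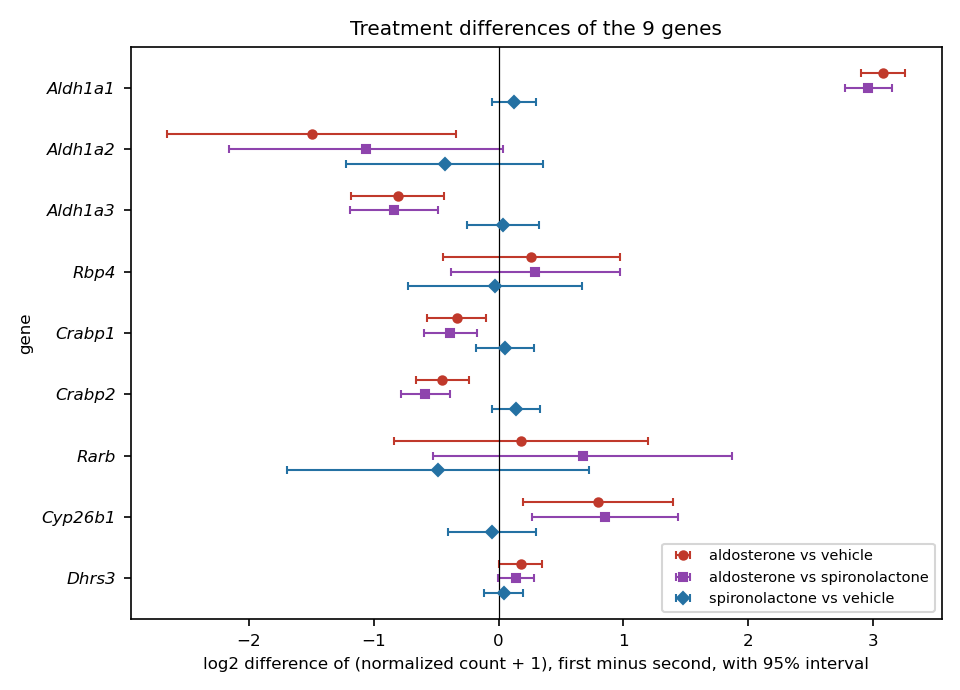
Differences of the 9 genes (log2 of normalized count + 1, first group minus second, points with 95% intervals from limma) in 3 comparisons. Aldh1a1 alone was beyond 1 with a narrow interval, Aldh1a3, Crabp1 and Crabp2 lay below 0 in both comparisons with aldosterone, and all 9 intervals of spironolactone against vehicle held 0.

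At an adjusted p of 0.05 or less with an absolute log2 difference of at least 1, 1 of the 9 genes (Aldh1a1) was higher with aldosterone than with vehicle and 0 were lower, where 1.4% of all genes were higher and 0.666% lower. At any fold, Aldh1a1 was called higher (5.68% of all genes) and Aldh1a3 and Crabp2 lower (4.74%). Against spironolactone, Aldh1a1 was again the 1 gene beyond both thresholds (1.38% of all genes higher, 0.521% lower), and at any fold Aldh1a3, Crabp1 and Crabp2 were lower (3.96%, and 4.93% for higher). Without overlap between libraries, Aldh1a1 was above vehicle (7.55% of all genes) and Aldh1a3 and Crabp2 below (6.9%), and Aldh1a1 was above spironolactone (6.76%) and Aldh1a3, Crabp1 and Crabp2 below (6.22%). Because the genes were chosen on these contrasts, nothing is read from those counts. The median difference of the 9 genes from vehicle was 0.18, and that of all genes -0.01. Between 27598 genes of spironolactone and vehicle limma called 0 (0%), members included, and 1251 (4.53%) had an unadjusted p under 0.05. DESeq2 and edgeR called 0 members there as well, and the libraries overlapped for all 9 genes (1.39% of all genes were higher and 1.24% lower without overlap). The difference of Aldh1a1 was 0.12 (95% interval -0.05 to 0.30), that of Aldh1a3 0.03 (-0.25 to 0.32) and that of Cyp26b1 -0.05 (-0.41 to 0.30).

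The sample numbers pair the libraries across treatments, and when they entered the fit as a replicate block 7 of the 9 genes passed an adjusted p of 0.05 for aldosterone against vehicle in place of 3. Cyp26b1 at 0.80, Dhrs3 at 0.18, Crabp1 at -0.34 and Aldh1a2 at -1.496 were added, with the same estimates and smaller standard errors. The block raised calls among all genes as well, from 10.4% to 16.7%, and of all genes 8.68% were higher and 8.02% lower with it. Against spironolactone 6 genes passed in place of 4, with Cyp26b1 and Dhrs3 added, where the share of all genes went from 8.88% to 14.4% (7.58% higher and 6.8% lower). These are again counts on the contrasts that chose the genes, and nothing is read from them. Libraries of sample number 2 decided the call of Cyp26b1 in the fit without block. Without aldosterone replicate 3 or without aldosterone replicate 4 it passed both thresholds, at up to 1.05 against vehicle and 1.11 against spironolactone. Without aldosterone replicate 4 Aldh1a2 also passed against vehicle, at -1.95. Crabp1 passed against vehicle without vehicle replicate 4 and failed against spironolactone without aldosterone replicate 3 or spironolactone replicate 2 (-0.29 at the smallest).

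Markers of other cells also moved with aldosterone. The endothelial list (Pecam1, Cdh5, Kdr and Tek) summed to 28.0 to 30.4 CPM with aldosterone and 20.1 to 22.4 CPM with vehicle, and 1 of its 4 genes, Kdr, passed the test. Mean levels with vehicle and aldosterone were 18.8 and 21.6 CPM for Tek and 1.91 and 6.87 CPM for Kdr. Cdh5 had 0.401 and 0.628 CPM, and Pecam1 went the other way, from 0.278 to 0.117 CPM. Tendon markers (Scx, Tnmd and Mkx) summed to 130 to 145 CPM against 186 to 209 CPM, with 2 of 3 lower. The 2 adipocyte markers summed to 4.41 to 8.24 CPM against 1.24 to 3.81 CPM, with Plin1 higher. Among the Schwann cell markers, which summed to 12.7 to 19.1 CPM against 10.2 to 13.9 CPM, S100b was higher, and none of the pericyte and smooth muscle, leukocyte, myogenic or epithelial and mesothelial markers passed. Fkbp5, Tsc22d3 and Per1, textbook targets of steroid receptors, all rose, by 4.26, 2.69 and 1.83 on the log2 scale. The 6 fibroblast markers summed to 30898 to 34969 CPM against 38291 to 42759 CPM, with Pdgfra higher and 0 called lower. Their part in the differences of the retinoid genes was not tested.

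Independent of treatment, 5 of the 9 genes differed between the sample numbers in the 8 vehicle and spironolactone libraries (limma with treatment as a covariate, adjusted p of 0.05 or less), where 8.17% of 27598 genes did, 4.04% higher and 4.13% lower in sample number 2. Cyp26b1 was lower in sample number 2, at 16.3 to 17.9 CPM against 23.5 to 27.7 CPM (log2 difference -0.62 ± 0.0707, limma adjusted p = 1.8e-08, n = 4 per sample number). Aldh1a3 was lower as well, at 11.4 to 13.5 CPM against 15.8 to 16.8 CPM (-0.45 ± 0.08, adjusted p = 1.0e-04). For both genes the ranges were apart, and the aldosterone libraries of sample number 2 were also the lower ones. Dhrs3 differed by -0.20 ± 0.0481 (adjusted p = 0.00477) and Crabp1 by -0.29 ± 0.0736 (adjusted p = 0.00744), the latter with overlap. Aldh1a1 was slightly higher in sample number 2, by 0.20 ± 0.0606 (adjusted p = 0.0274), and its aldosterone libraries of 273 and 302 CPM were above the 217 and 233 CPM of sample number 1. Calls of Aldh1a3 and Cyp26b1 held without any 1 library. That of Aldh1a1 was lost without vehicle replicate 1 or 3 or spironolactone replicate 1, 2 or 4 (adjusted p up to 0.176), that of Crabp1 without vehicle replicate 4 or spironolactone replicate 2 (up to 0.0916) and that of Dhrs3 without vehicle replicate 1 (0.0565). These tests compare 2 samples of cells and not mice in general.

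**Figure D4:**
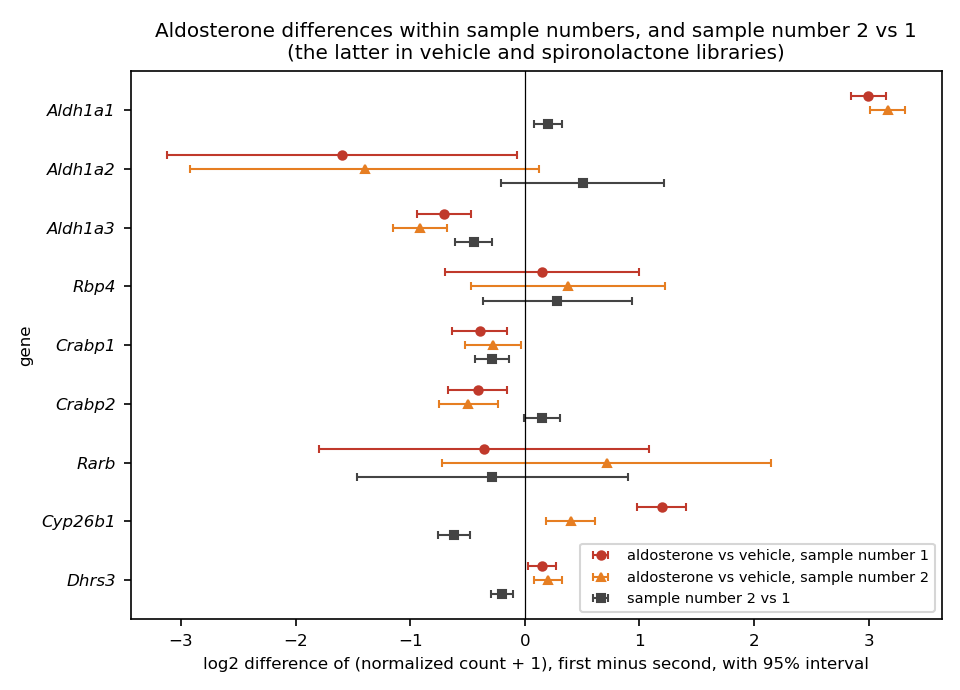
Differences between aldosterone and vehicle within sample number 1 (circles) and sample number 2 (triangles), and between sample numbers 2 and 1 in the vehicle and spironolactone libraries (squares), on the log2 scale with 95% intervals. Intervals of Cyp26b1 do not overlap between the sample numbers (0.98 to 1.41 and 0.18 to 0.61), whereas those of the other genes do.

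Transcript levels of cell type markers differed between the sample numbers as well. In sample number 2, 3 of 4 markers of pericytes and smooth muscle passed the test as lower (Rgs5, Myh11 and Cspg4), and the list summed to 371 to 408 CPM against 459 to 523 CPM. Both adipocyte markers were higher, at 3.64 to 5.54 CPM against 1.24 to 2.20 CPM in sum. Of the fibroblast markers Dcn, Lum and Col1a2 were higher and Thy1 was lower, with sums of 37611 to 42759 CPM and 34524 to 39475 CPM. Their part in the differences of Cyp26b1, Aldh1a3, Crabp1, Dhrs3 and Aldh1a1 was not tested.

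Per kilobase, the carriers and the reductase led the 9 genes in vehicle-treated cells. Crabp1 had 31.1 ± 4.72 CPM per kb (SD, n = 4) and Dhrs3 29.4 ± 2.94, which overlapped. Crabp2 followed with 13.2 ± 1.67, then Aldh1a1 with 6.26 ± 0.534, each apart from its neighbours. Cyp26b1, at 4.02 ± 0.973, and Aldh1a3, at 3.06 ± 0.566, overlapped. Rbp4 at 0.8002 ± 0.334 and Aldh1a2 at 0.476 ± 0.204 also overlapped, and Rarb was last with 0.0197 ± 0.00888. The order was the same in spironolactone-treated cells. With aldosterone, Aldh1a1, which had ranked 4 of 9, ranked 1 with 51.9 ± 7.80 CPM per kb, above Dhrs3 with 32.2 ± 2.14 and Crabp1 with 23.8 ± 2.26.

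The wider pathway was examined in 78 genes listed by symbol and role, with earlier results of these data known. Their p-values and counts of calls are therefore a description. Of the 78 genes, 69 were in the table of aldosterone and vehicle and 55 had a mean normalized count of 10 or more. In all, 9 were higher and 3 lower with aldosterone at an adjusted p of 0.05 or less, that is 12 of 69 where 10.4% of all genes passed, and the median difference was 0.09. Among them, 3 passed both thresholds, all higher. Against spironolactone 5 were higher and 2 lower, where 8.88% of all genes passed, and between spironolactone and vehicle limma called 0, as did DESeq2 and edgeR. Of the 12 genes that passed against vehicle, 6 were other aldehyde dehydrogenases. Of all 27319 genes, 15245 had a mean normalized count of 10 or more, a smaller part than in the list. The shares of calls are therefore of sets unlike in detection.

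Of 17 other aldehyde dehydrogenases, 4 were higher and 2 lower with aldosterone than with vehicle, with a median of 0.19, where 5.68% of all genes were higher and 4.74% lower. A mean normalized count of 10 was reached by 15 of the 17, so these shares too are of sets unlike in detection. Besides Aldh1a7, Aldh1l1, which oxidizes formyl-tetrahydrofolate in the cytosol, was at 5.66, 5.49, 4.23 and 4.15 CPM with vehicle and 9.77, 11.4, 10.6 and 9.76 CPM with aldosterone (1.13 ± 0.131, limma adjusted p = 1.79e-05). Its mitochondrial relative Aldh1l2 went the other way, from 200 to 209 CPM down to 153 to 156 CPM (-0.37 ± 0.0485, adjusted p = 6.36e-05). Aldh6a1, of valine breakdown, was higher by 0.66 ± 0.0849 (adjusted p = 4.99e-05), and Aldh18a1, of proline synthesis, was lower by a log2 difference of -0.27 ± 0.0568 (adjusted p = 0.00518). Aldh3b1 was higher by 0.36 ± 0.09 (adjusted p = 0.0156). Against spironolactone the same 5 genes other than Aldh3b1 were called, with differences of 1.69 for Aldh1a7, 0.91 for Aldh1l1, 0.70 for Aldh6a1, -0.40 for Aldh1l2 and -0.31 for Aldh18a1. Those 5 genes kept their calls against vehicle without any 1 library, whereas that of Aldh3b1 was lost without aldosterone replicate 3 or 4 or vehicle replicate 4 (adjusted p up to 0.0597).

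In the other lists few genes passed the test, against the same shares of all genes. Of 15 retinol dehydrogenases and retinaldehyde reductases in the table, Dhrs7 (0.31 ± 0.0767, limma adjusted p = 0.0145) and Adh5 (0.20 ± 0.0597, adjusted p = 0.0439) were higher with aldosterone. Rdh16 was also called, from 0 reads in each vehicle library and 1 to 4 in the aldosterone libraries, but 1 spironolactone library had 6 reads. Rdh10, the main retinol dehydrogenase of embryos, was at 12.6 to 15.4 CPM with vehicle and 11.01 to 14.01 CPM with aldosterone and did not pass. Of 4 genes of breakdown and transport, Fabp5, a carrier of fatty acids and retinoic acid, was higher (0.65 ± 0.172, adjusted p = 0.0215) and Por, the electron donor of cytochrome P450 enzymes, was lower (-0.19 ± 0.0587, adjusted p = 0.0496). Of 13 textbook targets of retinoic acid in the table, Nr2f2, an orphan receptor, was higher (0.41 ± 0.12, adjusted p = 0.04), and the median was 0.08. In the fit without a block, none of 12 receptors and coregulators passed against vehicle, with a median of -0.02. Rxra, the partner of the retinoic acid receptors, passed in that fit against spironolactone alone (0.21 ± 0.0554, limma adjusted p = 0.0222). Likewise without a block, none of 11 genes of retinol uptake and storage passed against vehicle, and Lpl passed against spironolactone (0.54 ± 0.127, limma adjusted p = 0.0108).

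Each call in these other lists was lost on leaving out 1 library or another, Adh5 in 6 of 8 such fits, Por in 8, Rdh16 in 6, Nr2f2 in 5, Fabp5 in 4, Rxra in 3, Dhrs7 in 2 and Lpl in 1, with adjusted p-values up to 0.158 for Adh5, 0.153 for Por, 0.124 for Nr2f2 and 0.0816 for Fabp5. Fabp5 was also lower in sample number 2 by a log2 difference of -0.61 ± 0.0583 (limma adjusted p = 1.83e-10), as Cyp26b1 was. With the replicate block on the sample number 19 genes of the wider list passed against vehicle and 16 against spironolactone, in place of 12 and 7. Rxra (0.15, limma adjusted p = 0.0154) and Lpl (0.39, adjusted p = 5.51e-05) were among those then passing against vehicle. Under the block 16.7% and 14.4% of all genes passed, so that calls rose over all genes too. Fabp5 was then also called between spironolactone and vehicle, as were 0.351% of all genes.

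**Figure D5:**
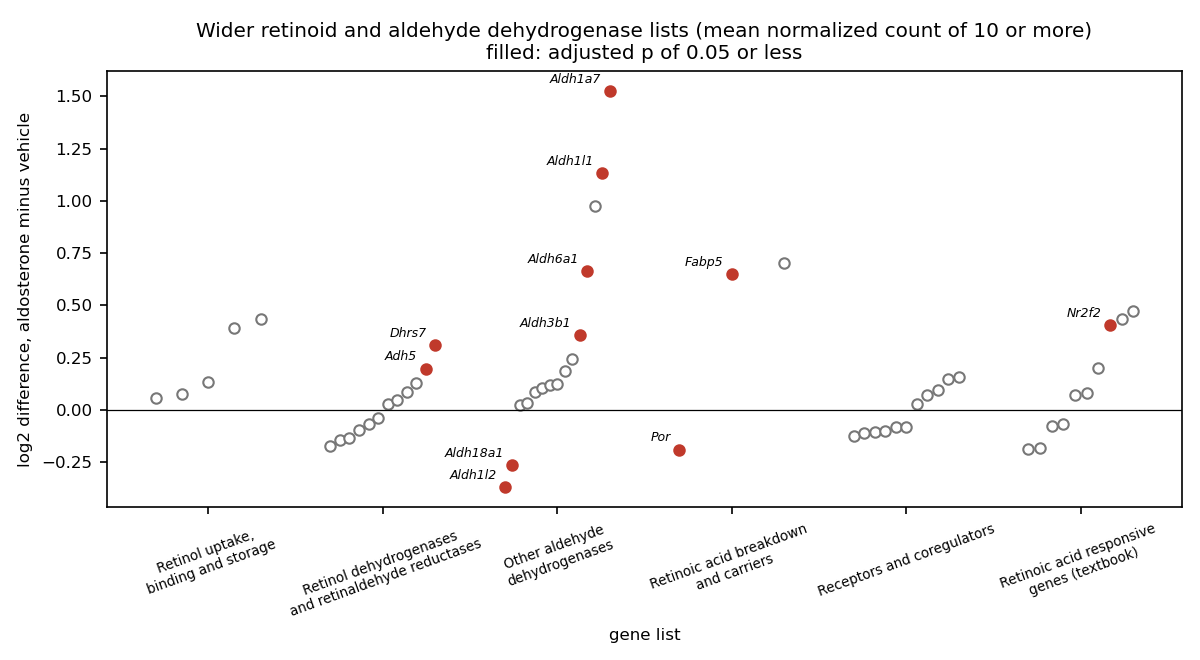
Difference between aldosterone and vehicle (log2 scale) of genes in 6 lists of the retinoid pathway and aldehyde dehydrogenases whose mean normalized count reached 10, 56 points in all since a gene may be in 2 lists. Filled points are genes with an adjusted p of 0.05 or less, and the greatest differences are those of Aldh1a7 (1.52) and Aldh1l1 (1.13).

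The genes with a pattern most like that of Aldh1a1 across the 12 libraries, by Pearson correlation of log2 CPM among 14920 others with at least 10 reads in every library of at least 1 group, were Gsn (r = 0.998), Glul (r = 0.998) and Serpina3n (r = 0.997). Gsn encodes an actin-severing protein, Glul makes glutamine, and Serpina3n is a secreted inhibitor of serine proteases. Their mean levels were 1043, 27.4 and 15.4 CPM with vehicle and 3332, 232 and 207 CPM with aldosterone. The libraries form a group with aldosterone and a group without, so these values describe mostly the step between them.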

How the data were processed

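Poly(A) RNA of 12 fibroblast plates was sequenced, 4 per treatment. The authors aligned the reads and counted them on genes, and per the submitters' processing notes HISAT2 (version 2.0.5), featureCounts (version 1.5.0-p3) and mm39 were used. The methods name mm9, but of 20676 genes matched to that build only 39 had the start given in the tables, so positions are given as mm39. The strand setting of the counting was not given in the sources used here. In 3 tables, 1 per pair of treatments, the authors deposited normalized counts, a signal in which each library's gene counts are divided by a size factor. The tables also hold the authors' own DESeq2 comparisons, which were not used. All values (100%) were whole multiples of 1 step per library within 0.001 reads, which gave the reads back, and a library's reads were the same in both of its tables.

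The 9 genes and the wider gene lists were chosen with earlier results of these data known. Levels are recovered reads per 1000000 reads on genes (CPM). Differences were fitted with limma (version 3.58.1, R version 4.3.3, trend in the prior variance) on log2(value + 1) for all genes of a table, with Benjamini-Hochberg adjustment over all of them, and a fold change on this scale understates that of low genes. The call rule was an adjusted p of 0.05 or less and an absolute log2 difference of at least 1, or at any fold where stated. Of the lists, genes are named that passed both thresholds, or an adjusted p of 0.05 with a mean normalized count of 100 or more, at most 6 per list. Rdh10 was named after its values were seen. Across treatments, deviations from group means correlated at 0.135 to 0.291 in the 24 library pairs that share a sample number and at -0.313 to -0.146 in the other 24, so the sample number pairs the libraries. Alternatives were a pseudocount of 0.5, a filter on a mean of 10, the sample number as a replicate block, averaged libraries, leaving out each library, TMM scaling, and DESeq2 (version 1.42.0) or edgeR (version 4.0.16) on the recovered reads. Genes without reads in the libraries of a fit were left out of it. On simulated data for aldosterone and vehicle with 200 changed genes, limma recovered 199 for treatment and 183 for an interaction. Recovery of differences as small as those of Aldh1a3, Crabp1 and Crabp2, or the interaction of Cyp26b1, was not tested.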

Additional observations from a re-analysis of the deposited data

Results flagged for a closer look

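In the group of 4 spironolactone libraries the highest value stood apart from the other 3 for Crabp1 (30.8 CPM) and Dhrs3 (96.2 CPM). Both are values of spironolactone replicate 2. Such gaps were looked for in 27 groups, and chance gives about 1 in 20. Without this library the difference of Crabp1 between aldosterone and spironolactone no longer passed at any fold.

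The difference of Cyp26b1 between aldosterone and vehicle was larger in sample number 1 than in sample number 2. The test of that difference gave -0.79 with DESeq2 (adjusted p = 0.00531), -0.78 with edgeR (adjusted p = 0.0451) and -0.79 with limma on genes with a mean of at least 10 (adjusted p = 0.0442), while limma on all genes gave an adjusted p of 0.259. These p-values measure the spread between plates, in libraries that also served to pick the gene.

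The estimates for Rarb had opposite signs, -0.36 in sample number 1 (95% interval -1.80 to 1.08) and 0.71 in sample number 2 (-0.72 to 2.15) on the log2 scale, and neither passed. It had 1 to 5 reads in each of these libraries, and the interaction did not pass (limma adjusted p = 0.895).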

How the results depend on the processing

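Differences of the 9 genes moved by less than the spread between libraries under nearly all alternatives, and no called difference changed sign. With the replicate block, and likewise with libraries of a sample number averaged, 2 of the 9 genes passed both thresholds against vehicle in place of 1 and 7 in place of 3 at any fold, and of the wider list 16 passed against spironolactone in place of 7. Against vehicle 19 of the wider list passed with the block in place of 12, and between spironolactone and vehicle 1 passed with the block and 2 with averaged libraries in place of 0. Averaging leaves 1 residual degree of freedom, so those p-values rest on the variance of other genes. DESeq2 and edgeR called 2 genes of the wider list beyond both thresholds against spironolactone in place of 1. The interaction with the sample number called 0 of the 9 genes with limma on all genes (4 of 27319 genes in all, 1356 at an unadjusted p under 0.05) and 1 with the filter on a mean of 10, with DESeq2 and with edgeR.

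Leaving out 1 library at a time gave 1 to 3 of the 9 genes beyond both thresholds and 3 to 5 at any fold against vehicle, 1 to 2 and 3 to 5 against spironolactone, 6 to 10 of the wider list at any fold against vehicle, 1 to 2 beyond both thresholds against spironolactone, and 3 to 5 genes for the sample numbers. The fewest of the wider list against vehicle were without aldosterone replicate 2 (6) and vehicle replicate 4 (7), and the 2 against spironolactone were without aldosterone replicate 1. The difference of Aldh1a1 from vehicle stayed between 3.01 and 3.15. Por did not pass against vehicle with a pseudocount of 0.5 or with TMM scaling, nor Fabp5 with DESeq2. The block changed no other call of the 9 genes than those given. Calls across all genes numbered 564 against vehicle and 446 to 701 under the alternatives that kept every library, and between spironolactone and vehicle 0, 2 with the block and 6 with averaged libraries. Depth limits Rarb, Aldh1a2 and Rbp4, of which few reads were counted. The cause of the changed calls was not tested.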
